A study of Mus musculus with 16 samples.

Results

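The proteasome genes of mouse tibialis anterior muscle were the rows of the expression table whose symbol begins with Psma, Psmb, Psmc, Psmd or Psme followed by a number. The name selected 44 of the 14538 genes listed. Of these, 7 encode the alpha ring and 7 the beta ring of the 20S core, 3 the immune forms of the catalytic beta subunits (Psmb8, Psmb9 and Psmb10), 9 the base and 8 the lid of the 19S cap, 3 chaperones that help to assemble the base (Psmd5, Psmd9 and Psmd10) and 4 the activators that bind the core in place of the cap (Psme1 to Psme4). The remaining 3 rows were Psme2b, a near-identical copy of Psme2, and Psmc3ip and Psme3ip1, which encode partners of a subunit rather than a subunit. Psme2b lay below the minimum for testing, a mean of 10 normalized counts over all mice, with 0 to 7 in each mouse, so that 43 of the 44 were tested among 11841 genes. Psmb11 and Psma8, the forms specific to thymus and testis, had no row.

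The proteasome degrades proteins that carry chains of ubiquitin. Its core is a barrel of stacked rings: the outer alpha rings form the gate, and the inner beta rings hold the catalytic sites, which lie on Psmb5 (chymotrypsin-like), Psmb6 (caspase-like) and Psmb7 (trypsin-like). The cap binds ubiquitin, removes it and, with the ATPase ring of its base, unfolds the substrate and threads it into the core. In skeletal muscle the ubiquitin-proteasome system removes a large part of the contractile proteins lost during fasting, denervation and disease, and its subunit genes are known to be transcribed together.

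RNA was sequenced from 16 wild-type C57BL/6 mice (C57BL/6J in the study's methods) that had been on the NASH diet, which is rich in fat and fructose, in cages at about 29 °C since 8 weeks of age. Of these, 5 received vehicle, 6 received recombinant GDF15, a hormone that lowers food intake, by subcutaneous injection once a day, and 5 were pair-fed, each given as much food as the GDF15 group had taken on the previous day. The labels list several GDF15 doses without saying which one these mice received, and do not give the age at collection. Every mouse was single-housed and gave 1 library, with an approximate depth of 9541640 to 15012400 reads. All 7 fibre markers that were looked up (Ckm, Acta1, Myh4, Myh1, Myh2, Tnnt3 and Pvalb) were detected in every library, as the labelled tissue requires. Their summed level was 1941380 to 2187640 normalized counts in vehicle-treated, 1974030 to 2184190 in GDF15-treated and 2101750 to 2381200 in pair-fed mice, so that it was highest in the pair-fed group, with overlap. The markers did not move one way in pair-fed against vehicle-treated mice: Ckm rose by 0.15 and Pvalb by 0.27 (adjusted p-values 0.0997 and 0.0538, limma), while Myh1 fell by 0.68 on the log2 scale (0.0123) and Myh2 had -0.61 (0.216). The 4 endothelial markers summed to 4132 to 4971 normalized counts in vehicle-treated, 3475 to 4284 in GDF15-treated and 3642 to 4404 in pair-fed mice. Each of the 4 had a lower mean in GDF15-treated and in pair-fed than in vehicle-treated mice, and of these Kdr was called, with log2 fold changes of -0.66 and -0.50 (adjusted p-values 0.00116 and 0.00473, limma). The 5 Schwann-cell markers summed to 675 to 1023 normalized counts in vehicle-treated, 808 to 1216 in GDF15-treated and 427 to 1233 in pair-fed mice. Of these, 5 had a lower mean in pair-fed than in vehicle-treated mice (median log2 fold change -0.21) and 5 a higher mean in GDF15-treated than in pair-fed mice (0.33). The 5 adipocyte markers summed to 53.9 to 357 normalized counts in vehicle-treated, 31.9 to 930.4 in GDF15-treated and 145 to 488 in pair-fed mice, and 5 of 5 had a higher mean in pair-fed than in vehicle-treated mice (median 0.81) and in GDF15-treated than in vehicle-treated mice (0.37). The 5 fibroblast markers summed to 2708 to 5385 normalized counts in vehicle-treated, 3692 to 6184 in GDF15-treated and 2745 to 5574 in pair-fed mice. In pair-fed against vehicle-treated mice 4 of the 5 had a lower mean (median -0.16), and in GDF15-treated against pair-fed mice 5 had a higher mean (0.35). Red blood cell markers, of which 3 of 5 were in the table and Alas2 was at 0 in at least 1 library, summed to 260 to 3146 normalized counts in vehicle-treated, 838 to 2556 in GDF15-treated and 79.9 to 3743 in pair-fed mice, and 3 of 3 had a higher mean in GDF15-treated than in either other group. The 3 satellite-cell markers summed to 72.2 to 105 normalized counts in vehicle-treated, 54.6 to 91.2 in GDF15-treated and 60.5 to 91.6 in pair-fed mice. Against vehicle-treated mice, 3 of 3 had a lower mean in GDF15-treated mice and 2 of 3 in pair-fed mice, with a median log2 fold change of -0.26 in both. No Schwann-cell, adipocyte, fibroblast, red blood cell or satellite-cell marker was called in any comparison. The part of all these markers in the results was not tested. In whole muscle, fewer cells of a type and less RNA per cell cannot be told apart.

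The 31 standard subunits (both rings, base and lid) took 0.368% ± 0.0105 of the normalized counts in vehicle-treated (SD, n = 5), 0.380% ± 0.0106 in GDF15-treated (n = 6) and 0.386% ± 0.00898 in pair-fed mice (n = 5). The range was 0.351% to 0.378% for vehicle, 0.364% to 0.397% for GDF15 and 0.373% to 0.394% for pair-fed mice. The groups overlapped, since pair-fed mouse 3 lay below vehicle-treated mice 2 and 4. The spread within groups, on the log2 scale of normalized counts, had a median SD of 0.07 over the 31 subunits, against 0.17 over all tested genes and 0.09 over the 1641 tested genes of similar abundance. The 3 immune subunits varied more, with a median SD of 0.33.

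Levels were compared between genes only per length, as the mean normalized count per kilobase of the principal transcript over all 16 mice. The beta ring had the highest median level, 1295 per kb, followed by the base with 1108, the lid with 828.6 and the alpha ring with 789. The activators had a median of 388, the base chaperones 76.1 and the immune core 42.4. Within a ring, where each subunit is present in equal number in the assembled particle, levels per length differed 3.9-fold: in the alpha ring Psma6 had 1262 and Psma2 323 per kb, and in the beta ring Psmb7 had 2520 and Psmb1 646 per kb. These ranges depend on the annotated lengths. Psma6 and Psma2 had means of 1315 and 939 normalized counts, with principal transcripts of 1042 and 2911 bases. Which isoforms the muscle expressed was not examined. In the base, Psmc3 (an ATPase subunit) was highest with 1653 and Psmc6 (another ATPase subunit) lowest with 607 per kb. In the lid, Psmd8 was highest with 1542 and Psmd14, the deubiquitinase of the cap, lowest with 421 per kb. Among activators, Psme4 (PA200, a monomeric activator) had 650, Psme1 440, Psme3 335 and Psme2 252 per kb; Psme1 and Psme2 are partners in the PA28 alpha-beta ring, and Psme3 forms the nuclear PA28 gamma ring. The chaperones ranged from 101 for Psmd9 to 54.1 for Psmd5.

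**Figure D1:**
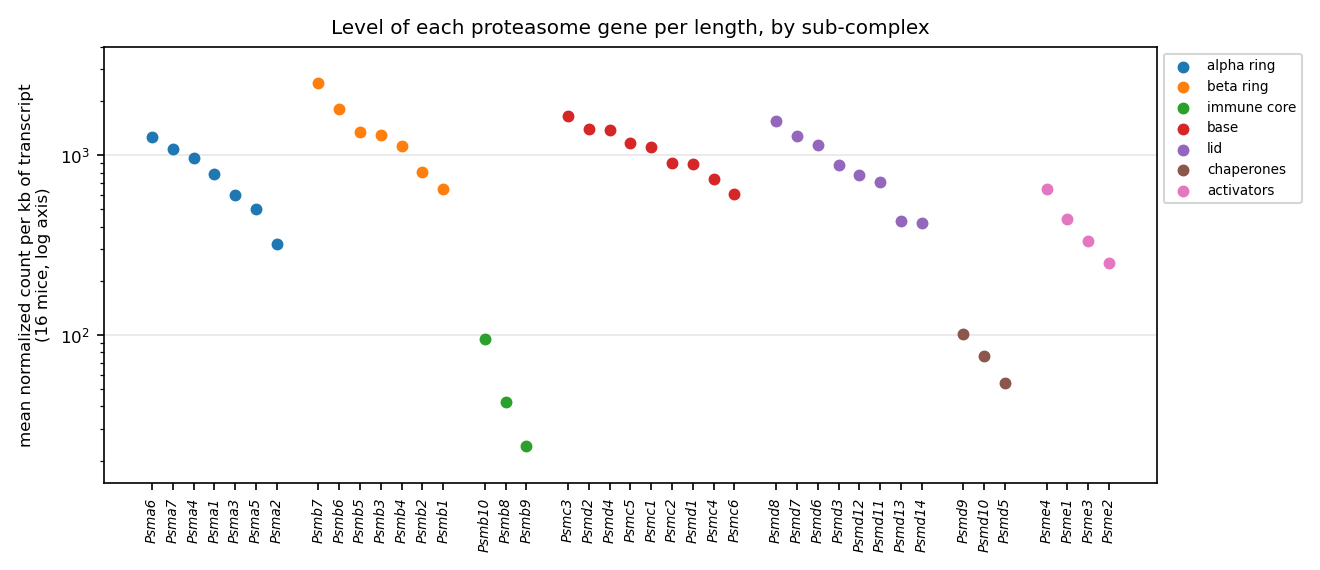
Mean normalized count per kilobase of the principal transcript over 16 mice (log axis) for each of the 41 genes of the named sub-complexes, ordered by level within each sub-complex. The standard subunits lie between 323 (Psma2) and 2520 (Psmb7) per kb, above the immune core and the chaperones, whose highest value is 101 (Psmd9).

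Promoters are shown for members on which the comparisons turn. Of the 44 members, 38 matched an entry among the RefSeq promoters (GRCm38.p6), which cover 250 bases before and 50 after the annotated start; Psmc3 and Psmd7, named below, did not match. The motifs searched, both known from proteasome promoters, on either strand, were TGACNNNGC, the antioxidant response element to which Nfe2l1 and Nfe2l2 bind, and CCAAT, to which NF-Y binds; no member held both. TGACNNNGC occurred in 6 of the 38 (15.8%), Psmb5, Psmb6, Psmc6, Psmd9, Psmd12 and Psme4, against 16.7% of the 11496 genes of the table that had a promoter entry. CCAAT occurred in 15 of the 38 (39.5%), against 42.6%. Both shares were near those of all promoters. Below are the 150 bases before the RefSeq start, read on the strand of the gene, for Psma5 and Psmd4, whose transcripts differed between groups, and for the catalytic subunits Psmb5 and Psmb6, which hold the TGACNNNGC motif. Capitals mark a motif on either strand. The stretches are Psma5 at chr3:108256776-108256925 (plus strand), Psmd4 at chr3:95042615-95042764 (minus), Psmb5 at chr14:54617996-54618145 (minus) and Psmb6 at chr11:70525207-70525356 (plus).
Psma5: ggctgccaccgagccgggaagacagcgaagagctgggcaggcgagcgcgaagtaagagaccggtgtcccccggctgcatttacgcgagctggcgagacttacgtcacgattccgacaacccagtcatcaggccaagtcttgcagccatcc
Psmd4: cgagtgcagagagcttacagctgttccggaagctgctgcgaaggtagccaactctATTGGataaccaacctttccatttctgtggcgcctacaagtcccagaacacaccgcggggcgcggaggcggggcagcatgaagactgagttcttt
Psmb5: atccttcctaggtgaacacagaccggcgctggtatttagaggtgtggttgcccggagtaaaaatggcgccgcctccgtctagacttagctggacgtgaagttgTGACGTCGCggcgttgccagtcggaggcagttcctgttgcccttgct
Psmb6: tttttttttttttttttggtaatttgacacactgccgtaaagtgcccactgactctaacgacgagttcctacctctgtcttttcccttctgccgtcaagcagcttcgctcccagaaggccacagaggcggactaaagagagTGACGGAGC
In Psmb5 the motif begins 47 bases before the start and in Psmb6 it begins 9 bases before it. In Psmd4 a CCAAT box on the opposite strand lies at positions -95 to -91. Further boxes lie after the start, outside the stretch shown, at 2 to 6 on the opposite strand and 21 to 25 on the strand of the gene. The window of Psma5 holds neither motif. The last bases of the Psmb5 stretch lie within the Psmb5 gene of GENCODE, which starts earlier than that of RefSeq.

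Pair-fed and vehicle-treated mice were compared first, since they differed in the food given and not in the hormone. Of the 31 standard subunits, 30 had a higher mean in pair-fed mice on the fitted log2 scale, with a median log2 fold change of 0.11 (7.87%), whereas 50.2% of all tested genes were higher and their median was 0.00. The exception was Psma1, at -0.02. All 17 genes of the cap were among the 30: the median was 0.13 for the base and 0.12 for the lid, and 0.07 for the 14 genes of the core rings. The 31 genes are transcribed together and shared the same 10 mice, so their directions are not independent observations. Few differences passed the test. With limma and Benjamini-Hochberg adjustment over all tested genes, 4 of the 43 members (9.30%) were called higher at an adjusted p-value under 0.1 and 0 were called lower, against a background of 3.20% of all tested genes called higher and 6.37% called in either direction. At an unadjusted p-value under 0.05 (limma), 13 of the 43 members (30.2%) differed, all higher. In either direction 18.9% of all tested genes did so, and 1071 of the 11841 were higher. None of the 43 passed both thresholds used by the study for this muscle, the same adjusted p-value with an absolute log2 fold change over 0.6, which 0.819% of all tested genes passed.

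Psmd4, the ubiquitin receptor of the base also known as Rpn10 (chr3:95032694-95042614, minus strand), rose most. Its normalized counts were 1746, 1708, 1496, 1786 and 1685 in vehicle-treated mice 1 to 5 and 2171, 1807, 1943, 2132 and 2204 in pair-fed mice 2 to 6. In the 6 GDF15-treated mice they ran from 1685 over a median of 1770 to 1958. Every pair-fed mouse lay above every vehicle-treated mouse, while the GDF15 group overlapped both. The log2 fold change of pair-fed against vehicle-treated mice was 0.28 ± 0.06 (SE; 21.7%), with a 95% confidence interval of 0.15 to 0.41 and an adjusted p-value of 0.0186 (limma). In 28 alternatives to the settings its adjusted p-value stayed between 0.00655 and 0.0588.

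Psmd7 (Rpn8), a lid subunit and the partner of the deubiquitinase Psmd14 (chr8:107580381-107588464, minus strand), had 1978, 1927, 1785, 1945 and 1947 normalized counts in vehicle-treated mice 1 to 5 and 2169, 2068, 2094, 2263 and 2098 in pair-fed mice 2 to 6. The groups did not overlap, and the log2 fold change was 0.16 ± 0.04 (SE), with an adjusted p-value of 0.0417 (limma). In the GDF15 group the counts ran from 1850 over a median of 2033 to 2066, all below the lowest pair-fed mouse. Without vehicle-treated mouse 3 or pair-fed mouse 5 the adjusted p-value of pair-fed against vehicle was 0.104 or 0.115.

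Psma5, an alpha-ring subunit (chr3:108256926-108279974, plus strand), had 567, 637, 578, 630 and 567 normalized counts in vehicle-treated mice 1 to 5 and 685, 639, 656, 722 and 676 in pair-fed mice 2 to 6. The lowest pair-fed mouse exceeded the highest vehicle-treated mouse by a narrow margin. The log2 fold change was 0.18 ± 0.05 (SE), with an adjusted p-value of 0.0659 (limma). It ranged from 0.0495 to 0.167 over 28 alternatives and stayed under 0.1 in 21 of them.

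Psmc3 (Rpt5), an ATPase of the base (chr2:91054009-91066369, plus strand), had 2661, 2431, 2650, 2557 and 2423 normalized counts in vehicle-treated and 3163, 2670, 2653, 2957 and 2798 in pair-fed mice. The groups overlapped, since pair-fed mouse 4 lay below vehicle-treated mouse 1. The log2 fold change was 0.16 ± 0.05 (SE), with an adjusted p-value of 0.0936 (limma), which was under 0.1 in 10 of 28 alternatives. Exons of Psmc3 overlap those of Slc39a13 on the opposite strand and exons of Psma5 those of 1700010K24Rik; the kit keeps the strand, but whether the quantification used it is not stated.

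**Figure D2:**
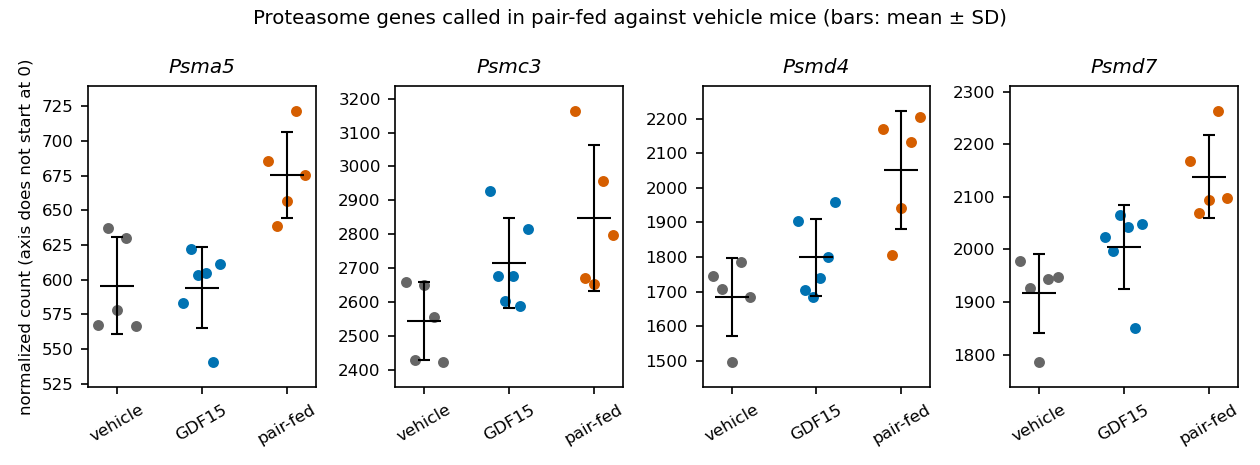
Normalized counts of the 4 proteasome genes called in pair-fed against vehicle-treated mice, with 1 point per mouse and black bars for the mean ± SD; the axes do not start at 0. Pair-fed mice lie above all vehicle-treated mice for Psma5, Psmd4 and Psmd7, and in the Psmc3 panel the lowest pair-fed mouse (2653) lies below the highest vehicle-treated one (2661).

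In the count of members whose 2 groups did not overlap, 4 were higher in pair-fed than in vehicle-treated mice, Psma5, Psmd3, Psmd4 and Psmd7, against 2.79% of all tested genes, and 0 were lower, against 2.65%. Psmd3 is a lid subunit; its log2 fold change was 0.12 ± 0.04 (SE), with an adjusted p-value of 0.119 (limma). The lid gene Psmd8 (Rpn12) had a larger difference, 0.23 ± 0.09 (SE), but also a larger spread, and its adjusted p-value was 0.166. Psmd11, a lid subunit that promotes assembly of the complete particle, differed by 0.15 ± 0.05 with an adjusted p-value of 0.109, and the scaffold subunits of the base, Psmd1 and Psmd2, by 0.13 each, with 0.129 and 0.126. The lid gene nearest to no difference was Psmd12, at 0.05.

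The count of called members depended on single mice. It was 9 without pair-fed mouse 3, when Psmc4, Psmd1, Psmd2, Psmd3 and Psmd11 joined the 4, but in that fit 4.12% of all tested genes were called higher, against 3.20% with all mice. It was 1, Psmd4 alone, without vehicle-treated mouse 3 or without pair-fed mouse 5, where 2.18% and 1.75% of all tested genes were called higher. It was 2 without vehicle-treated mouse 1 or 5 or pair-fed mouse 2 or 6, where these shares were 1.79% to 2.47%. Over all these alternatives and the other settings, the median of the 31 subunits stayed between 0.08 and 0.12 and 29 or 30 of them were higher. In the pair-fed group the 10 most abundant genes of the muscle took 27.1% ± 0.94 of the counts (SD, n = 5), against 25.4% ± 0.55 in vehicle-treated (n = 5) and 25.8% ± 0.69 in GDF15-treated mice (n = 6). After rescaling to the counts outside those 10 genes the median of the 31 subunits was 0.09, with 29 higher, while that of all tested genes was -0.01.

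The medians of the sub-complexes in single mice showed where the pair-fed group stood apart. Each value is the median over the genes of a sub-complex of the log2 difference from the mean of the vehicle-treated mice. For the base it was 0.20, 0.02, 0.06, 0.21 and 0.14 in pair-fed mice 2 to 6, and -0.07 to 0.05 in vehicle-treated mice. Pair-fed mice 2, 4, 5 and 6 were above the GDF15 group's median of 0.04, and pair-fed mouse 3 was not. For the lid it was 0.18, 0.04, 0.09, 0.21 and 0.10 in the same order, and -0.04 to 0.03 in vehicle-treated mice, so that pair-fed mouse 3 was only just higher. For both core rings together the lowest pair-fed value, 0.0392, was just above the highest vehicle value, 0.0359. In the alpha ring alone these groups overlapped. Over all 31 subunits the values were 0.0450 and 0.0377. GDF15-treated mice reached 0.108 in the core rings. The GDF15 group was held wide by mouse 1, at 0.14 for the base and 0.15 for the lid, and mouse 5, at 0.00 and -0.06. Of the 31 subunits, 11 had their highest value in pair-fed mouse 5, 8 in pair-fed mouse 2 and 8 in GDF15-treated mouse 1, and none in a vehicle-treated mouse; 10 had their lowest value in GDF15-treated mouse 5 and 9 in vehicle-treated mouse 3. Counts of the cap and of the core were also summed without division by length, to compare groups and not the level of cap and core. The cap had 1.76 ± 0.03 times the counts of the core in vehicle-treated (SD, n = 5), 1.77 ± 0.05 in GDF15-treated (n = 6) and 1.85 ± 0.06 in pair-fed mice (n = 5). The lowest pair-fed value, 1.76, lay within the vehicle range of 1.71 to 1.79.

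**Figure D3:**
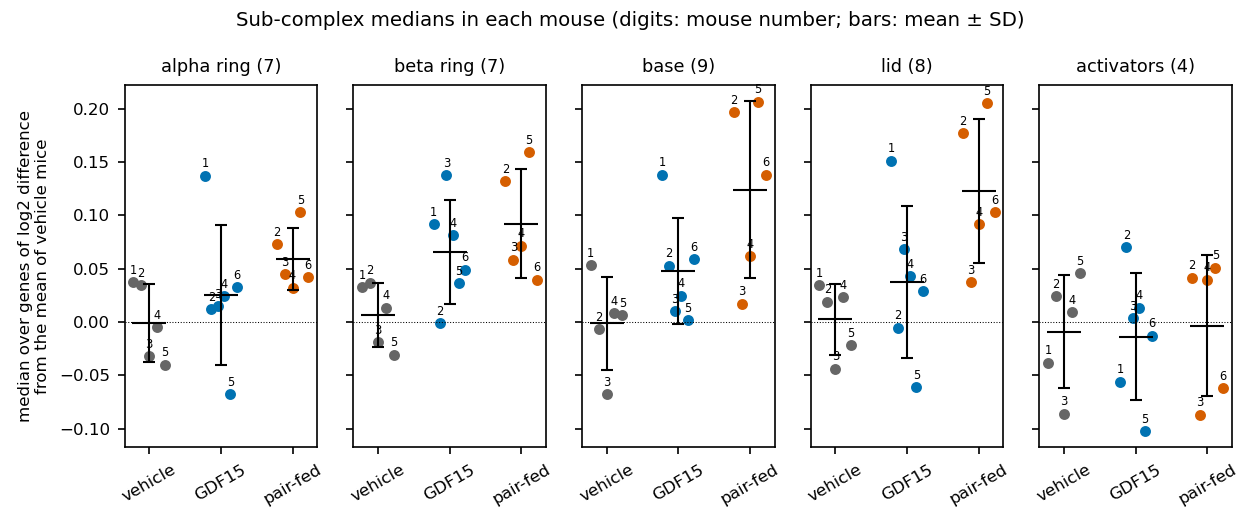
Median over the genes of each sub-complex of the log2 difference from the mean of vehicle-treated mice, with 1 point per mouse, its number beside it, and bars for the mean ± SD; the number of genes stands in the title of each panel. In the base and lid panels pair-fed mice 2 and 5 lie near 0.2 and pair-fed mouse 3 near 0, within or next to the vehicle range, and the activators show no separation of the groups.

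GDF15-treated and vehicle-treated mice differed in both the hormone and the food eaten. No member was called: 0 of 43 passed an adjusted p-value under 0.1 (limma), against 0.769% of all tested genes, and none passed both thresholds of the study, against 0.304%. At an unadjusted p-value under 0.05 there was 1, against 11.0% of all tested genes. It was Psmb1, a beta-ring subunit without catalytic activity, with 1073, 1104, 967, 1139 and 1105 normalized counts in vehicle-treated mice and a range of 1109 to 1194 with a median of 1155 in GDF15-treated mice. Its log2 fold change was 0.11 ± 0.05 (SE), with an adjusted p-value of 0.403. In no member did the 2 groups separate, against 0.785% of all tested genes that were higher and 0.861% that were lower without overlap. The median of the 43 was 0.04, or 0.01 without GDF15-treated mouse 1, and 26 of the 31 standard subunits were higher, with values from -0.04 (Psma1) to 0.17 (Psmd8). The lowest value of the 43 was that of the chaperone Psmd5, -0.18. Over the 31 subunits the 95% confidence intervals lay between -0.13 and 0.35, so that differences beyond these bounds were outside the interval of every standard subunit.

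GDF15-treated and pair-fed mice were matched for food and differed in the hormone. Here 29 of the 31 standard subunits were lower in GDF15-treated mice, with a median log2 fold change of -0.06, while 50.8% of all tested genes were higher. All 17 genes of the cap were among them, with medians of -0.08 for the base and -0.07 for the lid; the core rings had a median of -0.02, and Psma3 and Psma6, both of the alpha ring, were the exceptions at 0.05 and 0.01. After rescaling to the counts outside the 10 most abundant genes, 24 of the 31 were lower and the median was -0.04. Over all alternatives 24 to 30 were lower and the median lay between -0.08 and -0.03. It was -0.03, with 27 lower, without pair-fed mouse 2 and -0.04, with 27 lower, without GDF15-treated mouse 5, while 25 were lower without pair-fed mouse 5. The median of the core rings lay between -0.03 with depth as a covariate and -0.000261 after the rescaling, so that its distance from 0 depended on the setting. With 1 mouse left out, the median of the base lay between -0.0955 and -0.0476 and that of the lid between -0.0963 and -0.0520. The comparison shares the pair-fed mice with that against vehicle, so high values in pair-fed mice enter both and one is no support for the other. Of the 43 members, 1 (2.33%) was called, lower, at an adjusted p-value under 0.1, against 2.17% of all tested genes in either direction and 1.24% lower. That share was near the background. After the rescaling, 1.18% of all tested genes were called higher and 0.921% lower, in place of 0.929% and 1.24%, and no member was called. None passed both thresholds of the study, which 0.279% of all tested genes passed. An unadjusted p-value under 0.05 (limma) was reached by 5 of the 43 members (11.6%), all lower. In either direction 13.2% of all tested genes reached it, 1559 of 11841, and 745 of these were higher.

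The called member was Psma5. Its normalized counts in GDF15-treated mice ran from 540 over a median of 604 to 622, all below the lowest pair-fed mouse, 639. GDF15-treated mouse 5 also lay below the lowest vehicle-treated mouse, 567, and the other GDF15-treated mice lay within the vehicle range. The log2 fold change was -0.19 ± 0.05 (SE), with an adjusted p-value of 0.0922 (limma). The call was lost in 22 of 28 alternatives, among them the removal of any single mouse other than pair-fed mouse 3, with adjusted p-values up to 0.249. Psmd4 had a difference of the same size, -0.19 ± 0.06, with an adjusted p-value of 0.158, followed by Psmd11 and Psmd1, both at -0.14, with 0.210 and 0.158. Without pair-fed mouse 3 all 4 of these genes were called, in a fit that called 1.71% of all tested genes lower. Psmd7 was the other member whose groups did not overlap, at -0.09 ± 0.04 and an adjusted p-value of 0.307. Such members numbered 2 lower, against 1.06% of all tested genes, and 0 higher, against 0.718%.

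Within the sub-complexes, the lowest and highest log2 fold changes of GDF15 against pair-fed mice were those of Psma5 (-0.19) and Psma3 (0.05) in the alpha ring, and of Psmb4 (-0.09) and Psmb2 (-0.01) in the beta ring. In the base they were those of Psmd4 (-0.19) and Psmc1 (-0.03), and in the lid those of Psmd11 (-0.14) and Psmd8 (-0.06). Psmd14 was at -0.09 and Psmc6 at -0.08. No adjusted p-value in this paragraph other than that of Psma5 was under 0.1.

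**Figure D4:**
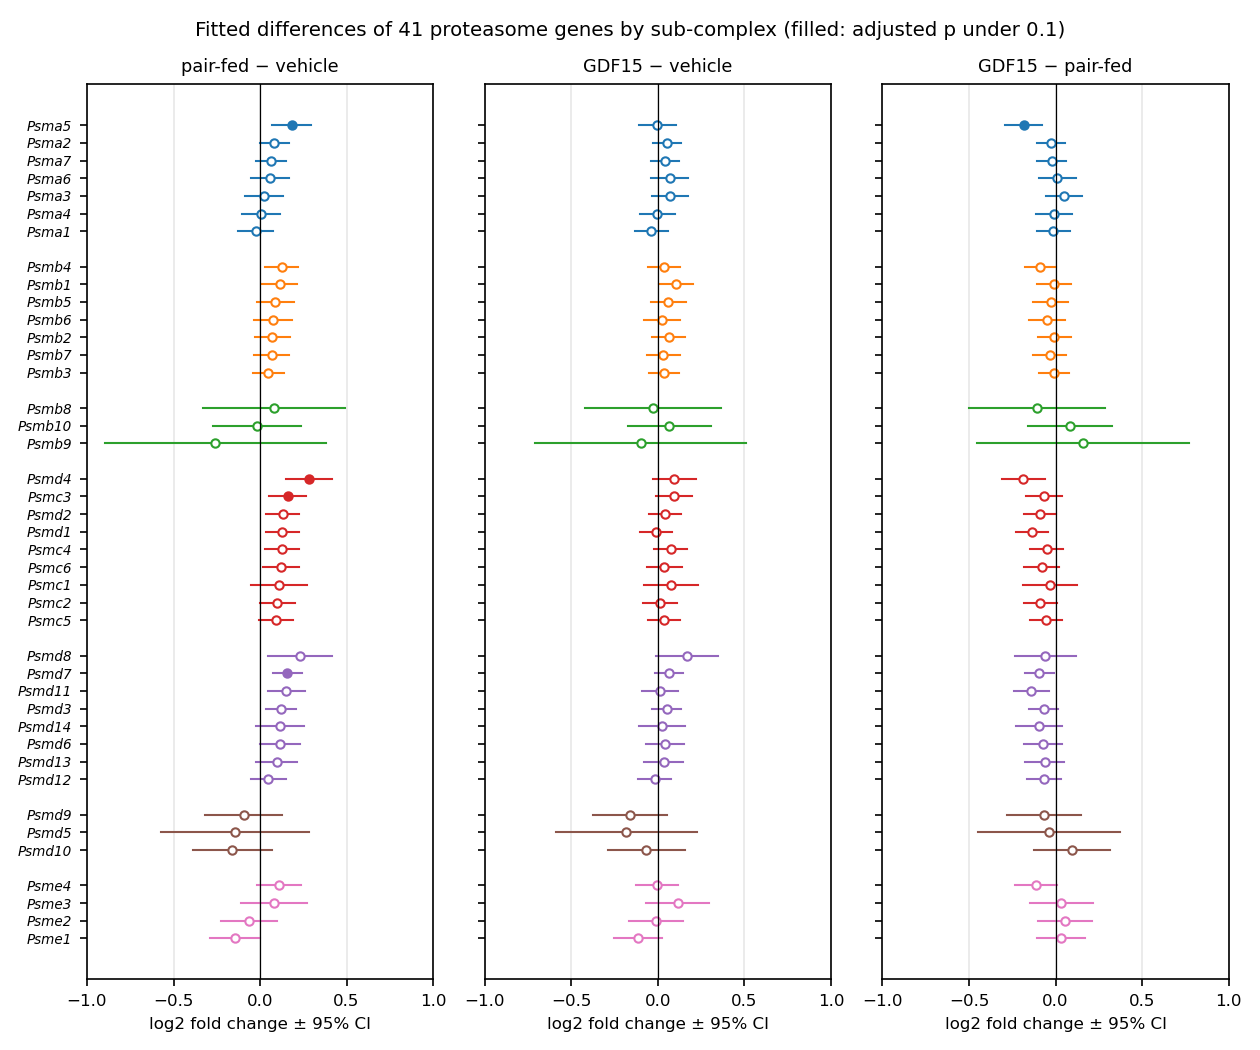
Log2 fold change with its 95% confidence interval for the 41 genes of the named sub-complexes in the 3 comparisons, with colours for sub-complexes, filled points for an adjusted p-value under 0.1 and genes ordered by the first panel. In pair-fed minus vehicle the base and lid lie to the right of 0 with 3 filled points among them, in GDF15 minus vehicle there is no filled point, and in GDF15 minus pair-fed only Psma5 is filled.

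The constitutive catalytic subunits differed little. Psmb5 had 1093, 1226, 1231, 1139 and 1129 normalized counts in vehicle-treated, 1164 to 1279 (median 1211) in GDF15-treated and 1335, 1193, 1141, 1298 and 1225 in pair-fed mice, and the 3 groups overlapped. Its log2 fold change was 0.09 in pair-fed and 0.06 in GDF15-treated against vehicle-treated mice, with 95% confidence intervals of -0.02 to 0.19 and -0.04 to 0.16. For Psmb6 the values were 0.07 and 0.02, and for Psmb7 0.07 and 0.03. The smallest adjusted p-value of these 3 genes in the 3 comparisons was 0.355.

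The immune catalytic subunits, which replace the constitutive ones in leukocytes and after interferon and yield peptides for MHC class I, were scarce. Per length, Psmb8 stood at 3.16% ± 0.63 of Psmb5, Psmb9 at 1.35% ± 0.52 of Psmb6 and Psmb10 at 3.75% ± 0.49 of Psmb7 (SD, n = 16). By group, the ratio of Psmb8 to Psmb5 was 3.31% ± 0.93 in vehicle-treated, 3.02% ± 0.52 in GDF15-treated and 3.19% ± 0.49 in pair-fed mice, so that the groups differed by less than their SD. Psmb9 had 17.1 to 38.5 normalized counts in pair-fed, 19.2 to 56.2 in GDF15-treated and 26.6 to 42.8 in vehicle-treated mice, and its log2 fold changes had SEs of 0.29 to 0.30, so that a difference of the size seen in the standard subunits was not detectable. In Psmb8 and Psmb10 the log2 fold changes lay between -0.11 and 0.08 in the 3 comparisons. Exons of Psmb9 overlap those of Tap1. Leukocyte markers, of which 9 of 11 were in the table, summed to 364 to 621 normalized counts in vehicle-treated, 373 to 578 in GDF15-treated and 247 to 571 in pair-fed mice. Of the 7 that were tested, 5 had a lower and 2 a higher mean in pair-fed than in vehicle-treated mice, with a median log2 fold change of -0.33. Of these 1, Ptprc, was called lower, at -0.97 (adjusted p-value 0.0634, limma), against 3.17% of all tested genes called lower. In GDF15-treated against pair-fed mice 7 of 7 had a higher mean, with a median log2 fold change of 0.36, and 0 were called. The part of these cells in the values of the immune subunits and of the MHC class I genes was not tested.

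**Figure D5:**
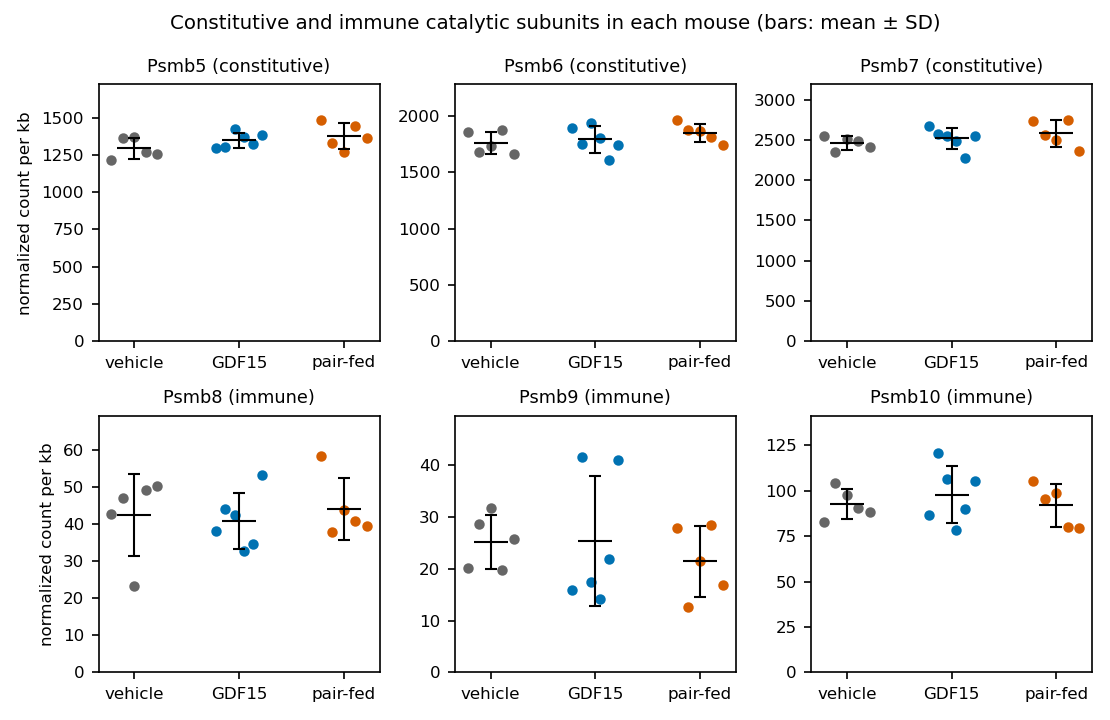
Normalized count per kilobase of the constitutive catalytic subunits (upper row) and of the immune subunits that replace them (lower row), with 1 point per mouse, bars for the mean ± SD, axes from 0 and a separate scale in each panel. The groups overlap in all 6 panels, and the immune subunits lie at a few percent of their counterparts.

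None of the 4 activators was called in any comparison, where the background of all tested genes called in either direction was 6.37% for pair-fed against vehicle, 0.769% for GDF15 against vehicle and 2.17% for GDF15 against pair-fed mice, so that 0 of 4 was near the background. Psme1 had 489, 531, 561, 515 and 502 normalized counts in vehicle-treated and 455, 438, 542, 476 and 443 in pair-fed mice, with 430 to 536 in GDF15-treated mice. The log2 fold change of pair-fed against vehicle-treated mice was -0.14 ± 0.07 (SE), with a 95% confidence interval of -0.29 to 0.00 and an adjusted p-value of 0.271. For Psme2 it was -0.07, for Psme3 0.08 and for Psme4 0.11, and none of these passed the test. Against pair-fed mice, GDF15-treated mice had log2 fold changes of 0.03 for Psme1, 0.05 for Psme2, 0.03 for Psme3 and -0.11 for Psme4. Exons of Psme1 overlap those of Emc9, and reads of Psme2 and Psme2b may be shared. The base chaperones had negative values in pair-fed against vehicle-treated mice, -0.14 for Psmd5, -0.09 for Psmd9 and -0.16 for Psmd10, with adjusted p-values of 0.468 or more. They were negative in GDF15-treated against vehicle-treated mice too, -0.18 for Psmd5, -0.16 for Psmd9 and -0.07 for Psmd10, with adjusted p-values of 0.604 or more. Differences between the activators or chaperones and the cap were not tested.

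Genes that act with the proteasome were counted from further lists. Adrm1 (Rpn13), a ubiquitin receptor of the cap whose symbol falls outside the name rule, had 1360, 1310, 1248, 1350 and 1378 normalized counts in vehicle-treated and 1579, 1437, 1523, 1635 and 1501 in pair-fed mice, without overlap. It rose by a log2 fold change of 0.21 ± 0.05 (SE; adjusted p-value 0.0186, limma), which held in all 28 alternatives. Sem1, a small subunit of the lid, had -0.06 in the same comparison and was not called. Among 5 assembly chaperones of the core, Psmg1 to Psmg4 and Pomp, 0 were called in any comparison, against 0.769% to 6.37% of all tested genes, so that with 5 genes the count was near the background.

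Of 17 tested regulators that bind the proteasome or bring substrates to it, 4 rose in pair-fed against vehicle-treated mice and 0 fell, against 3.20% of all tested genes called higher and 3.17% called lower. Zfand5, which binds the cap and stimulates degradation, had 4961, 4594, 4808, 4636 and 4458 normalized counts in vehicle-treated and 6251, 5169, 6029, 6761 and 6520 in pair-fed mice, without overlap, and 4475 to 5069 in GDF15-treated mice. Its log2 fold change was 0.38 ± 0.06 (SE; adjusted p-value 0.0029, limma). Ddi2, the protease that activates Nfe2l1 by cleavage, rose by 0.53 ± 0.11 (adjusted p-value 0.0117), Fbxo7, an F-box protein that binds the proteasome inhibitor Psmf1, by 0.43 ± 0.11 (0.0366), and Ubqln2, a shuttle factor that carries ubiquitylated proteins, by 0.34 ± 0.06 (0.00524). Pair-fed mouse 3 had the lowest Zfand5, Ddi2 and Fbxo7 of its group. In GDF15-treated against pair-fed mice 2 of the 17 fell, against 1.24% of all tested genes called lower. They were Zfand5, which fell by 0.36 ± 0.06, and Ddi2, which fell by 0.58 ± 0.10 on the log2 scale (adjusted p-values 0.00718 and 0.0122, limma). The calls of Zfand5 and Ddi2 held in all 28 alternatives in both comparisons, which share the pair-fed mice; that of Fbxo7 held in 27.

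Among 11 tested genes for the transcription of proteasome genes, 1 was called, in pair-fed against vehicle-treated and in GDF15-treated against pair-fed mice, where 6.37% and 2.17% of all tested genes were called in either direction. Nfe2l2 (Nrf2) had 554, 514, 483, 539 and 523 normalized counts in vehicle-treated mice, 509 to 564 with a median of 546 in GDF15-treated mice and 631, 585, 655, 592 and 668 in pair-fed mice, which lay above both other groups without overlap. It rose by 0.26 ± 0.05 (SE) in pair-fed against vehicle-treated mice (adjusted p-value 0.0131, limma) and fell by 0.20 ± 0.05 in GDF15-treated against pair-fed mice (0.0662); the second call was lost in 11 of 28 alternatives. Nfe2l1 (Nrf1), the factor that restores proteasome genes when the proteasome is inhibited, had -0.19 ± 0.07 in pair-fed against vehicle-treated mice (adjusted p-value 0.140, limma). It had a similar value, -0.17 ± 0.07, in GDF15-treated against vehicle-treated mice (0.338, limma) and 0.02 in GDF15-treated against pair-fed mice.

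Of 6 genes for ubiquitin and its E1 enzymes and 9 tested muscle ubiquitin ligases, 0 were called in any comparison, against 0.769% to 6.37% of all tested genes, which was again near the background. Fbxo32 (atrogin-1) had log2 fold changes of 0.01 in pair-fed and -0.15 in GDF15-treated against vehicle-treated mice, and Trim63 (MuRF1) had 0.04 and 0.06; both are ligases known to rise in muscle wasting. Of 10 genes of MHC class I processing, 1 was called, higher in GDF15-treated than in pair-fed mice, against 0.929% of all tested genes called higher. It was Irf1, an interferon-induced transcription factor, with 154 ± 18.4 normalized counts in GDF15-treated (SD, n = 6) and 114 ± 20.1 in pair-fed mice (n = 5), a log2 fold change of 0.44 ± 0.12 (SE; adjusted p-value 0.0922, limma) that was called in 9 of 28 alternatives.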

How the data were processed

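RNA of tibialis anterior muscle from 16 mice (5 vehicle-treated, 6 GDF15-treated, 5 pair-fed) was analysed, with groups taken from the sample labels. The authors used Trim Galore for trimming, Salmon for quantification of transcripts and DESeq2 for normalization; the submitters' processing notes name mm10, and tool versions and the strand setting are not given in the sources used here. The authors deposited log2 values of 14538 genes, between 7.32 and 19.96, of which 8459 lie at the lowest value, the value of a count of 0. The tests had been planned for normalized counts, so the values were transformed back with the inverse of the variance stabilizing transformation that the authors' tool applies (square of the difference between the linear value and its minimum, divided by the linear value). Low values of genes with 1 transcript were then whole multiples of a common step (within 0.1) in 92.7% to 98.1% of cases per library, and those of genes with more than 4 transcripts in 20.0% to 26.7%, so whole reads were not recovered, no count model was run, and depth is approximate (9541640 to 15012400 reads).

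The 11841 genes that averaged 10 or more normalized counts were tested two-sided on log2(normalized count + 1) with limma 3.58.1 in R 4.3.3 (lmFit, contrasts.fit, eBayes with trend), with all 3 groups and no covariate; the scale understates changes of low genes. P-values were adjusted by Benjamini-Hochberg over all tested genes and called under 0.1. On simulated data for GDF15 against pair-fed mice over 11841 genes, 33 of 100 genes changed by 0.3 and 83 of 100 changed by 1 on the log2 scale were called, with 15 unchanged genes called. The changed genes were drawn at random from all tested genes, so these shares do not describe the members. Python 3.11.15 with pandas 2.3.3 was used for summaries. Gene positions, exon overlaps and transcript lengths are from GENCODE vM21 (GRCm38).

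The members and gene lists were chosen with earlier results of these data known. The genes named were those called in any comparison, the lowest and highest of each sub-complex in GDF15 against pair-fed mice, the most and least abundant per length, the catalytic pairs, the activators, and called genes of the further lists; Psmd1, Psmd2, Psmd3, Psmd12, Psma1, Psmc4, Sem1, Nfe2l1, Fbxo32, Trim63, Myh2 and Ptprc were named after their values were seen. GENCODE names processed pseudogenes of Psmb5, Psmb6 and Psmb7, and how their reads were divided was not checked. The labels reuse mouse numbers between groups, but 14 same-numbered pairs had correlations of their deviations of -0.10 to 0.07, so the numbers were not taken to pair the mice. The 71 other pairs had -0.11 to 0.19. These correlations cannot exclude a pairing. Whether mice shared a batch is not stated. Proteins were not compared here. Alternatives were other pseudocounts, minimum counts and thresholds, the deposited log2 values, other scalings, no trend, library weights, a fit of 2 groups, depth as a covariate, the mouse number as a block and each mouse left out.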

Additional observations from a re-analysis of the deposited data

Results flagged for a closer look

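Of 117 sets of values (28 members chosen by the rule for named genes, 7 called genes of the further lists and the medians of 4 sub-complexes, each in 3 groups), 7 held a mouse that stood apart from the others of its group by Dixon's test at 95%; chance flags about 1 in 20 sets. Vehicle-treated mouse 3 was low in 3 genes, with 38.0 normalized counts of Psmb8, 1785 of Psmd7 and 3522 of Psme4. Among GDF15-treated mice, mouse 1 was high for Psmd14 with 762 normalized counts, mouse 5 low for Psmd7 with 1850 and mouse 3 high for Psme3 with 1139. Pair-fed mouse 2 was high for Psmb8 with 95.04 normalized counts. Without vehicle-treated mouse 3, the Psmd7 difference between pair-fed and vehicle-treated mice was 0.13 on the log2 scale, with an adjusted p-value of 0.104 (limma).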

How the results depend on the processing

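The 3 median log2 fold changes of the members kept their direction in every alternative: -0.07 to -0.03 for GDF15 against pair-fed, 0.01 to 0.05 for GDF15 against vehicle and 0.07 to 0.11 for pair-fed against vehicle. No member was called for GDF15 against vehicle in any alternative, where the other fits called 0.270% to 0.971% of all tested genes in either direction. For GDF15 against pair-fed mice, where 1 member was called, 0 were called in several other fits. These had no minimum count, rescaling without the 10 most abundant genes, no trend, library quality weights, only the 2 groups compared or depth as a covariate. In these fits 0.507% to 1.00% of all tested genes were called lower. At the stricter threshold of 0.05 and with the added fold threshold, which 0.279% of all tested genes passed, 0 were called. Leaving out 1 mouse gave 0 to 4, in fits that called 0.304% to 1.71% of all tested genes lower. For pair-fed against vehicle mice, where 4 were called, 2 were called at the threshold of 0.05 and 0 with the added fold threshold, which 0.819% of all tested genes passed. Leaving out 1 mouse gave 1 to 9, in fits that called 1.75% to 4.12% of all tested genes higher. The share of all tested genes called at 0.05 was not counted. With the mouse number as a replicate block, Psmd4 was the 1 member called higher in pair-fed against vehicle mice, against 2.04% of all tested genes called higher. Psmd4 was also the 1 member called lower in GDF15 against pair-fed mice, in place of Psma5, against 0.878% called lower. In GDF15 against vehicle mice 0 members were called, against 0.321% in either direction. The numbers were not taken to pair the mice, but a pairing was not excluded. The cause of these changes was not tested. Of genes simulated with a change of 0.3 on the log2 scale, 33 of 100 were called for GDF15 against pair-fed mice, and smaller changes were not simulated.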
